A study of Mus musculus with 15 samples.

Results

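43 genes of the actin cytoskeleton and of focal adhesions were followed in RNA-seq of adult neural stem cells (aNSCs), out of 53801 genes in the count table. The genes were chosen by name from the actins, tropomyosins, myosins, filamins, adducins and other actin-binding proteins, and measured values of these same libraries across the 3 groups were in view when the list was drawn up. Their fold changes and counts of calls are therefore a description of the list. The cells were primary cultures from mice of the strain C57BL6/J-129sv at 2 months of age. All cultures, controls included, carried the Rosa26-CreERT2 transgene, a Cre recombinase that is expressed broadly from the Rosa26 locus and becomes active when 4-hydroxytamoxifen (4-OHT) is given. Fl/+ cultures held 1 floxed Trrap allele (genotype Trrap Fl/+) and Fl/Fl cultures held 2 (Trrap Fl/Fl). The 3 groups of 5 libraries were Fl/+ without treatment, Fl/+ with 4-OHT, and Fl/Fl with 4-OHT. The labels put the exposure to 4-OHT at 5 days, whereas the methods of the study describe a shorter exposure that was completed to the same span in fresh medium. Both Fl/+ groups came from mice 19, 24, 26, 35 and 36, and the Fl/Fl group came from mice 27, 28, 29, 37 and 39.

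Actin monomers assemble into filaments that are nucleated by the Arp2/3 complex and by formins, cut and recycled by cofilin and gelsolin family proteins, and coated by tropomyosins that decide which myosins and severing proteins have access. Non-muscle myosin II pulls on these filaments, filamins, alpha-actinins and fascin crosslink them, and vinculin, zyxin and LIM-domain proteins tie them to integrins at focal adhesions. In neural stem and progenitor cells this system shapes the processes, the division and the migration of the cell, and many of its genes are known targets of the transcription factor SRF with its actin-regulated cofactors and of the YAP and TEAD factors.

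Short stretches upstream of the RefSeq start sites are shown for members that carry letters of these factors' motifs, so that the genes named below can be read beside their promoter sequence. The RefSeq promoter table of GRCm38.p6, with 250 bases before and 50 bases after each start, held 40 of the 43 members. Actb, Tagln and Synpo had no entry. Both strands were searched, and a gene with several starts counted once if any window matched. The CArG box, the SRF binding motif, was found in 5 of the 40 members, against 1.81% of the 27025 genes in the table and 1.55% of those that passed the expression filter. The sequences run 5′ to 3′ along the gene and the capitals mark the CArG box.
Cnn2 (chr10:79988519-79988578, plus strand): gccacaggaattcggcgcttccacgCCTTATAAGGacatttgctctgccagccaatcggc
Myl6 (chr10:128493025-128493084, minus strand): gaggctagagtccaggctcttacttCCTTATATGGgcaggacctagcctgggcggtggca
Myl9 (chr2:156775278-156775337, plus strand): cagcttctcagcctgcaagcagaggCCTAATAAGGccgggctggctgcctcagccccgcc
Vcl (chr14:20929148-20929207, plus strand): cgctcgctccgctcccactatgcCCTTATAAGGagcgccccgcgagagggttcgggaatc
Actg1 (chr11:120348551-120348610, minus strand): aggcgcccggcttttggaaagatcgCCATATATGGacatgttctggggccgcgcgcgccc
The TEAD motif CATTCC was present in 13 of the 40 members and in 14.3% of the filtered genes. It is marked in capitals for 3 genes with large differences after 4-OHT.
Fblim1 (chr4:141606091-141606150, minus strand): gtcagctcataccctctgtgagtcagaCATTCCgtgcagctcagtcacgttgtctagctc
Flnc (chr6:29433125-29433184, plus strand): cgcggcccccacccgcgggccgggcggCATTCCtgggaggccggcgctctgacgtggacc
Inf2 (chr12:112588556-112588615, plus strand): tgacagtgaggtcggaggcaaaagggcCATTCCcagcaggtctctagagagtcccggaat
The GC box GGGCGG, or its reverse CCGCCC, was present in 36 of the 40 members and in 69.1% of the filtered genes. It is marked for Tpm4 and Add2, the 2 members with the largest falls between genotypes.
Tpm4 (chr8:72135188-72135287, plus strand): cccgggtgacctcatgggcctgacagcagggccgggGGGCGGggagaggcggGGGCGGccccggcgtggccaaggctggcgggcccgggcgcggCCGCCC
Add2 (chr6:86028581-86028680, plus strand): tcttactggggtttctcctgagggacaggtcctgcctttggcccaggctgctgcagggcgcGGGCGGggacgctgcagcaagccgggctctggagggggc
The CArG box began 50 bases before the start in Myl6, 56 bases in Cnn2, 90 bases in Actg1, 161 bases in Myl9 and 227 bases in Vcl. These 5 genes did not share 1 direction between genotypes: Myl9 was higher in Fl/Fl cultures, Cnn2 and Myl6 were lower, and Vcl and Actg1 did not pass the test. A match of letters is a description of the window only.

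Between 25.7 M and 32.2 M counts were assigned to genes per library. Levels are given as CPM, counts scaled to a common library size with the trimmed mean of M values, as mean ± SD over the 5 libraries of a group. A gene was called when edgeR's quasi-likelihood test gave an adjusted p under 0.05 over all genes tested. Trrap, the targeted gene, had 190.1 ± 14.3 CPM in the untreated Fl/+ group, 164 ± 26.4 CPM in the Fl/+ group with 4-OHT and 104 ± 24.2 CPM in the Fl/Fl group. It fell between the genotypes (log2 fold change -0.64, SE 0.16, adjusted p = 0.0115), with 1 Fl/Fl library above the lowest Fl/+ 4-OHT library. In 2 libraries the counts of sex-linked genes did not match the label. The library labelled Fl/Fl 39 (female) held 9 Xist counts and 1556 Ddx3y counts, and the library labelled Fl/+ 4-OHT 36 (male) held 2117 Xist counts beside Y-linked counts. The untreated culture of mouse 36 held 160 Xist counts beside Y-linked counts, against 8 and 4 in the untreated males 19 and 35. It was therefore left out as well where mouse 36 was of unclear sex. Counts of called members without these libraries stand with each comparison. The neural stem cell markers were abundant in every group, with a summed level of 5887 to 10410 CPM over 10 genes. The markers of mural and smooth muscle cells, which are rich in several of the contractile genes, summed to at most 17.5 CPM over 8 genes and Myh11 stayed at or below 0.76 CPM. Fibroblast markers summed to at most 3.51 CPM, endothelial markers to at most 8.67 CPM and microglial markers to at most 1.91 CPM over 6 genes each, with Dcn, Lum, Cdh5, Cx3cr1 and Aif1 at or near 0. In bulk RNA, fewer cells of a type and less RNA per cell cannot be told apart.

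Per kilobase of exon, the system was led by beta-actin and by proteins that bind actin monomers or recycle filaments. In untreated Fl/+ cultures Tmsb4x (thymosin beta-4, which sequesters monomers) stood at 843 ± 224 CPM per kb and Actb (beta-actin) at 824 ± 160 CPM per kb, a difference within their SD. Cfl1 (cofilin, which severs filaments) followed at 518 ± 52.4 CPM per kb, and Pfn1 (profilin-1, which charges monomers for assembly) at 204 ± 21.6 CPM per kb. Fscn1 (fascin, which bundles filaments) was at 159.9 ± 27.5 CPM per kb and did not separate from Arpc2 at 145 ± 5.36 CPM per kb. Arpc2 is a subunit of the Arp2/3 complex. At the low end, Fblim1 was at 0.268 ± 0.125, Flnc at 0.238 ± 0.186 and Tpm2 at 0.229 ± 0.0945 CPM per kb, values that lie within each other's SD. Cnn1 (calponin-1, of smooth muscle) was last at 0.0474 ± 0.0395 CPM per kb. Of the assigned counts, the 43 members held 1.00% ± 0.11 without treatment, 1.13% ± 0.0214 in Fl/+ cultures after 4-OHT and 0.864% ± 0.0814 in the Fl/Fl group. The Fl/Fl libraries, at 0.797% to 0.987%, lay below all Fl/+ 4-OHT libraries, at 1.097% to 1.15%.

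**Figure D1:**
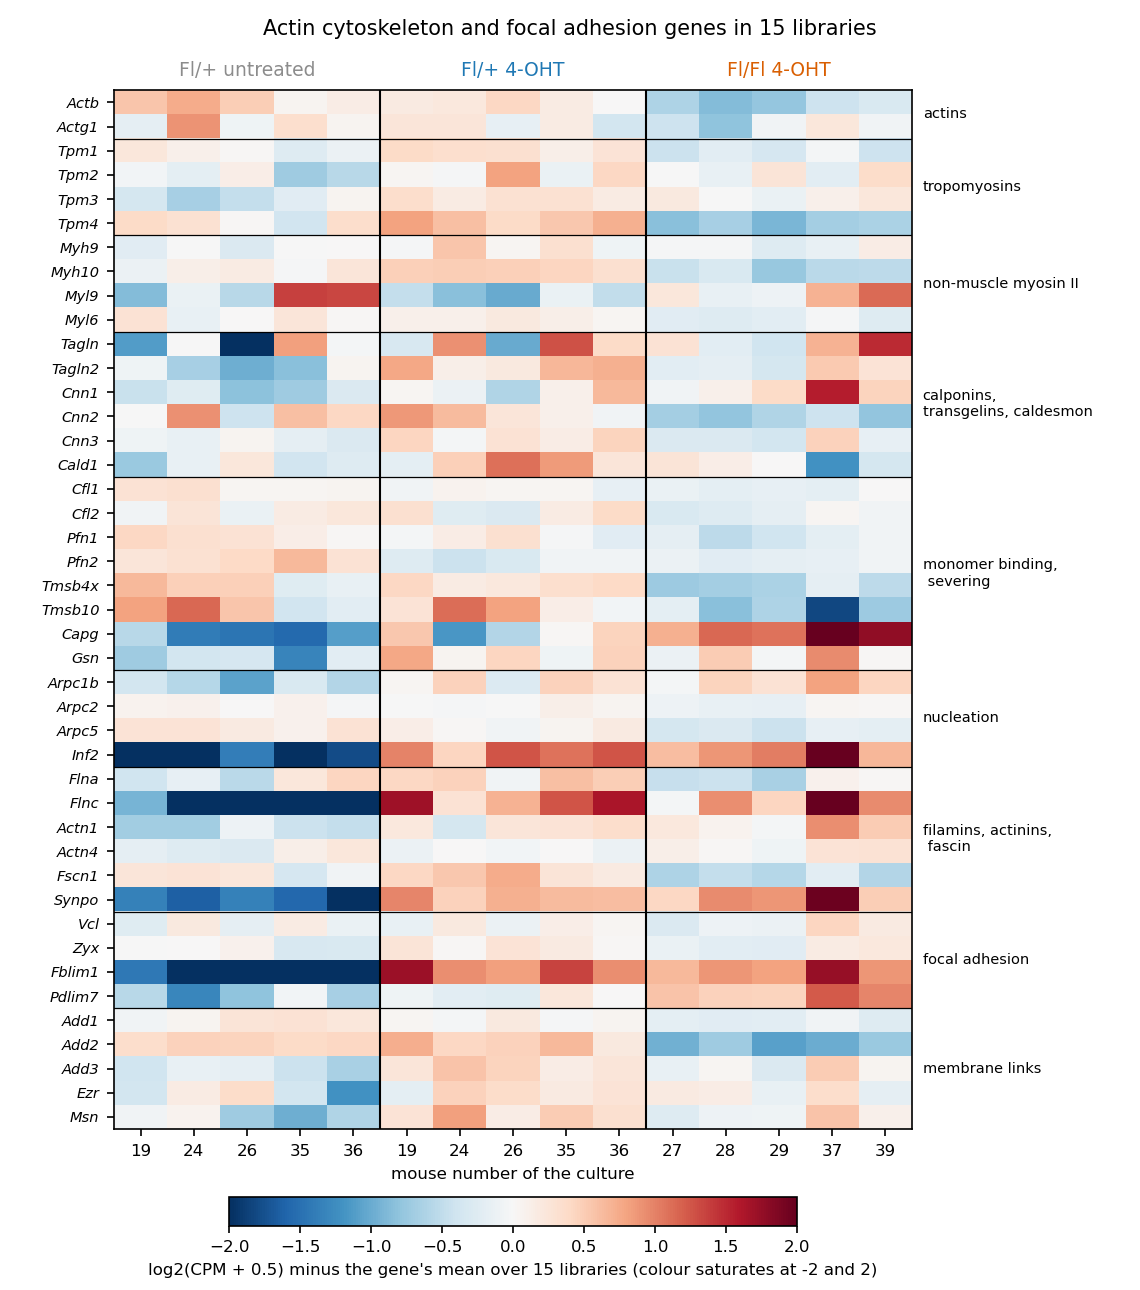
Level of each of the 43 genes in each of the 15 libraries, as log2(CPM + 0.5) minus the gene's mean over all libraries. Columns are cultures named by mouse, in 3 groups of 5, and rows are grouped by role. Fblim1, Flnc, Inf2 and Synpo are blue in all untreated cultures and red in most of the treated ones, and Tpm4, Add2 and Myh10 are blue in all 5 Fl/Fl cultures.

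Fl/Fl cultures were set against Fl/+ cultures that had also received 4-OHT, which asked what deletion of Trrap changed among these genes. Of 43 members tested, 13 were lower and 3 were higher in Fl/Fl cultures. Over all 15036 genes tested, 15.0% were lower and 16.8% were higher. In 14 members the 5 Fl/Fl values did not overlap the 5 Fl/+ values, as in 22.6% of all genes tested. The median log2 fold change was -0.22 over the members and 0.02 over all genes. Since measured values of this comparison were used in choosing the list, nothing is read from these shares. Without both libraries of unclear sex, 13 members were lower and 3 were higher, beside 1807 lower and 1706 higher of 15142 genes tested. There was no untreated Fl/Fl group here, so that loss of Trrap and any other difference between the 2 sets of mice cannot be told apart. 3 of 10 neural stem cell markers (Sox2, Fabp7 and Prom1) and 2 of 6 neuronal markers (Dcx and Tubb3) were also lower in Fl/Fl cultures. Their summed level was 554 to 806 CPM in Fl/Fl and 815 to 999 CPM in Fl/+ 4-OHT cultures for the neuronal list, and 5887 to 10080 and 7650 to 9814 CPM for the stem cell list. Their part in the results below was not tested.

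Actb (ENSMUSG00000029580, GRCm38, chr5:142903115-142906754, minus strand) encodes beta-actin, the main non-muscle actin. The study also used actin as the reference for its quantitative PCR. Its level was 1075, 904, 968, 1231 and 1341 CPM in the Fl/Fl cultures of mice 27, 28, 29, 37 and 39. In the Fl/+ 4-OHT cultures of mice 19, 24, 26, 35 and 36 it was 1864, 1910, 2209, 1851 and 1651 CPM. Every Fl/Fl library lay below every Fl/+ 4-OHT library. Actb was 1.70-fold lower (log2 fold change -0.77, SE 0.12, adjusted p = 0.00111). Untreated Fl/+ cultures were at 2418, 2751, 2322, 1718 and 1833 CPM, and the Fl/+ groups overlapped. Actg1 (ENSMUSG00000062825, chr11:120345690-120348542, minus strand), gamma-actin, had 2.70, 1.94, 3.54, 4.49 and 3.54 CPM in Fl/Fl cultures and 4.56, 4.56, 3.32, 4.26 and 2.79 CPM in Fl/+ 4-OHT cultures. The groups overlapped and the difference did not pass the test (adjusted p = 0.44). In untreated cultures Actg1 was at 3.26, 7.43, 3.50, 4.89 and 3.90 CPM. Its level is uncertain, because 36.2% of the 51-base stretches of its transcripts also occur in 21 genes elsewhere in the genome and the authors counted uniquely mapped reads only. Beyond that share, the reason for its low count was not tested.

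Among the tropomyosins, which coat filaments and set their stability, Tpm4 differed most. Tpm4 (ENSMUSG00000031799, chr8:72134975-72153142, plus strand) was at 58.6, 66.3, 55.5, 65.6 and 67.8 CPM in Fl/Fl cultures. The Fl/+ 4-OHT cultures held 184, 159, 137, 153 and 172 CPM. The 2 ranges were far apart, with the highest Fl/Fl value below the lowest untreated value of 80.3 CPM as well. Tpm4 was 2.54-fold lower (log2 fold change -1.34, SE 0.089, adjusted p = 1.76e-05). Its processed pseudogene Gm7809 shares 11.5% of its 51-base stretches. Tpm1 fell too, from 206 ± 14.0 to 139 ± 16.4 CPM (log2 fold change -0.55, adjusted p = 0.00101). Tpm3 went from 125 ± 7.91 to 111 ± 11.1 CPM and Tpm2 from 1.15 ± 0.471 to 0.949 ± 0.256 CPM, and neither passed the test. Counted per kilobase, Tpm4 made up 58.0% ± 2.80 of the 4 tropomyosins in Fl/+ 4-OHT cultures and 41.6% ± 1.502 in Fl/Fl cultures. The share of Tpm3 was 16.4% ± 1.51 and 26.6% ± 2.38. In both cases the 5 values of one group did not overlap those of the other.

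The non-muscle myosin II genes moved in different directions. Myh10 (ENSMUSG00000020900, chr11:68691559-68816632, plus strand) encodes the heavy chain of non-muscle myosin IIB. It was at 132, 145, 106, 123 and 124 CPM in Fl/Fl cultures and at 248, 253, 249, 242 and 224 CPM in Fl/+ 4-OHT cultures. All Fl/Fl values lay below all Fl/+ values, including the untreated ones at 165, 195, 200.3, 176 and 213 CPM. Myh10 was 1.91-fold lower (log2 fold change -0.94, SE 0.083, adjusted p = 5.72e-05). Myh9, the heavy chain of myosin IIA, was at 261 ± 27.8 and 308 ± 60.9 CPM and did not pass the test. The share of Myh10 in the pair was 37.4% ± 2.41 in Fl/Fl and 49.8% ± 4.19 in Fl/+ 4-OHT cultures. Myl6, the essential light chain, fell from 83.7 ± 3.31 to 67.6 ± 4.81 CPM (log2 fold change -0.29, adjusted p = 0.00565). Myl9 (ENSMUSG00000067818, chr2:156775420-156781658, plus strand), a regulatory light chain known from smooth muscle and contractile non-muscle cells, rose. It was at 10.2, 7.72, 7.93, 14.2 and 19.3 CPM in Fl/Fl cultures and at 6.05, 4.56, 4.03, 7.76 and 5.92 CPM in Fl/+ 4-OHT cultures. The ranges overlapped, since the Fl/Fl culture of mouse 28 lay just under the Fl/+ culture of mouse 35. Myl9 was 2.11-fold higher (log2 fold change 1.08, SE 0.27, adjusted p = 0.0121), and the call was lost with a dispersion shared by all 15 libraries (adjusted p = 0.0799). The untreated cultures of mice 35 and 36 held 22.9 and 22.4 CPM, against 4.45 to 7.78 CPM in the other 3.

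**Figure D2:**
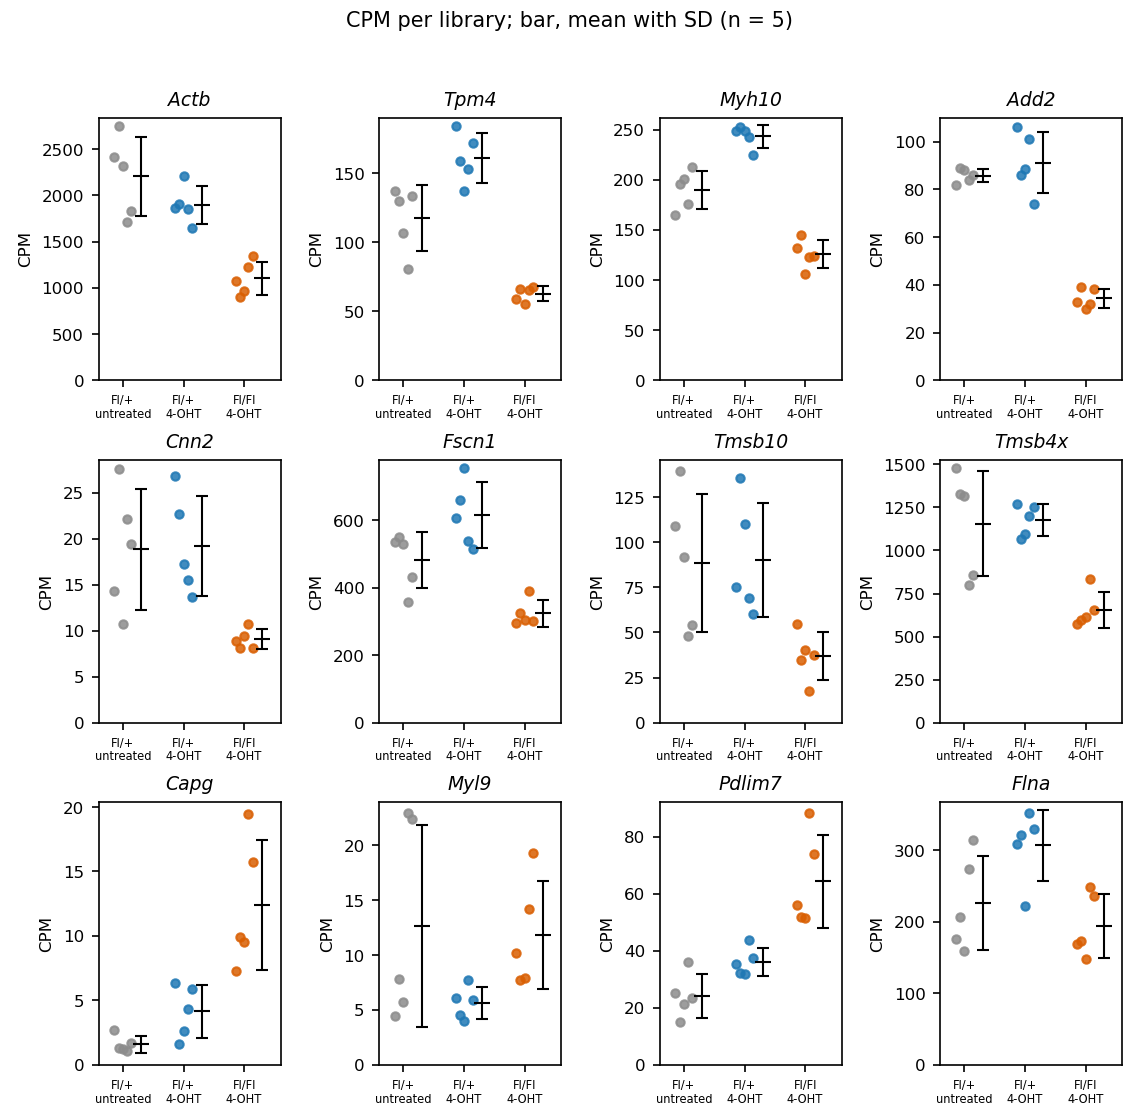
CPM in each library for 12 members with a call between genotypes. Points are cultures, and the black bar with whiskers is the mean with the SD (n = 5). In Tpm4, Myh10 and Add2 the Fl/Fl points lie below both Fl/+ groups, and in Capg and Pdlim7 they lie above both.

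Calponins, transgelins and caldesmon bind along filaments and damp myosin activity. Cnn2 (calponin-2, ENSMUSG00000004665, chr10:79988584-79996062, plus strand) was at 8.85, 8.12, 9.37, 10.8 and 8.16 CPM in Fl/Fl cultures. In Fl/+ 4-OHT cultures it was at 26.8, 22.8, 17.2, 15.6 and 13.7 CPM. The groups did not overlap, and Cnn2 was 2.10-fold lower (log2 fold change -1.07, SE 0.18, adjusted p = 0.00169). The other 5 genes of this role (Tagln, Tagln2, Cnn1, Cnn3 and Cald1) did not pass the test. Without the Fl/Fl culture of mouse 37, Tagln2 (log2 fold change -0.62, adjusted p = 0.0197) and Cnn3 (-0.53, adjusted p = 0.00453) were called lower.

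Both thymosins, small peptides that hold actin monomers in reserve, were lower in Fl/Fl cultures. Tmsb10 (ENSMUSG00000079523, chr6:72957347-72958748, minus strand) was at 54.5, 34.7, 40.5, 17.4 and 37.8 CPM in Fl/Fl cultures and at 75.5, 136, 110.2, 68.9 and 60.5 CPM in Fl/+ 4-OHT cultures. The highest Fl/Fl value lay below the lowest Fl/+ 4-OHT value. Tmsb10 was 2.41-fold lower (log2 fold change -1.27, SE 0.3, adjusted p = 0.00784), with 26.7% of its 51-base stretches shared with other genes. Untreated cultures ranged from 47.9 to 139.7 CPM and overlapped with both groups. The more abundant Tmsb4x fell from 1177 ± 91.6 to 655 ± 105 CPM (log2 fold change -0.83, adjusted p = 3.7e-04). Capg (ENSMUSG00000056737, chr6:72544391-72562983, plus strand), a gelsolin-family protein that caps filament ends without severing, went the other way. It was at 7.27, 9.93, 9.57, 19.4 and 15.7 CPM in Fl/Fl cultures and at 6.39, 1.61, 2.65, 4.30 and 5.92 CPM in Fl/+ 4-OHT cultures. All Fl/Fl values lay above all Fl/+ values, and Capg was 2.99-fold higher (log2 fold change 1.58, SE 0.38, adjusted p = 0.00911). Cfl1, Cfl2, Pfn1, Pfn2 and Gsn did not pass the test. Of the Arp2/3 subunits, Arpc5 fell from 87.8 ± 5.72 to 68.9 ± 5.22 CPM (log2 fold change -0.33, adjusted p = 0.00398), while Arpc1b and Arpc2 did not pass.

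Among crosslinkers, Fscn1 (ENSMUSG00000029581, chr5:142960343-142973185, plus strand), the bundler of filopodia, was at 295, 326, 306, 392 and 301 CPM in Fl/Fl cultures. It was at 606, 661, 756, 539.6 and 515 CPM in Fl/+ 4-OHT cultures, without overlap. Fscn1 was 1.88-fold lower (log2 fold change -0.91, SE 0.12, adjusted p = 4.08e-04). Flna, the widely expressed filamin A, fell from 306 ± 49.96 to 194 ± 44.5 CPM (log2 fold change -0.64, adjusted p = 0.011), with overlapping values. Actn1 and Actn4 (alpha-actinins), Flnc and Synpo did not pass. At focal adhesions 1 of the 4 members was called, where 16.8% of all genes tested were higher and 15.0% were lower. Pdlim7 (ENSMUSG00000021493, chr13:55495795-55513676, minus strand), a PDZ and LIM protein that binds tropomyosin-coated filaments, was at 56.1, 51.9, 51.5, 88.5 and 74.0 CPM in Fl/Fl cultures. The Fl/+ 4-OHT cultures held 35.2, 32.4, 31.8, 43.9 and 37.7 CPM. The groups did not overlap, and Pdlim7 was 1.797-fold higher (log2 fold change 0.85, SE 0.16, adjusted p = 0.00253). Vcl (vinculin) was at 102 ± 20.9 and 101 ± 10.5 CPM and Zyx (zyxin) at 95.7 ± 14.3 and 109 ± 9.30 CPM.

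Adducins cap filament ends and join them to spectrin under the membrane. Add2 (ENSMUSG00000030000, chr6:86028681-86124409, plus strand), the beta subunit of brain and red cells, showed the largest difference in size among the members called lower. It was at 32.6, 39.1, 29.9, 31.9 and 38.2 CPM in Fl/Fl cultures and at 106, 86.1, 88.5, 101 and 73.8 CPM in Fl/+ 4-OHT cultures. Untreated cultures lay at 82.0, 88.9, 87.9, 83.8 and 86.2 CPM, so that the Fl/Fl cultures stood apart from both Fl/+ groups. Add2 was 2.63-fold lower (log2 fold change -1.39, SE 0.11, adjusted p = 4.56e-05). Add1, the widely expressed alpha subunit, fell from 403 ± 26.9 to 342 ± 17.3 CPM (log2 fold change -0.22, adjusted p = 0.0312), a call that was lost when 1 of 5 different libraries was left out (adjusted p of 0.0512 to 0.0663). Add2 made up 4.76% ± 0.707 of the adducin counts per kilobase in Fl/Fl and 9.97% ± 1.62 in Fl/+ 4-OHT cultures. Ezr and Msn, which link filaments to membrane proteins, did not pass the test.

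The comparison of Fl/+ cultures with and without 4-OHT gave the background of the treatment itself. The Fl/+ 4-OHT libraries are the same ones as above, so that the 2 comparisons are not independent. 4-OHT, active CreERT2 and the loss of 1 Trrap copy cannot be told apart here. Of 42 members tested (Cnn1 was below the filter), 15 were higher and 1 was lower after 4-OHT. Over all 14821 genes tested, 7.34% were higher and 6.45% were lower (53.2% of the calls were higher, and 66.2% when libraries were scaled by their totals alone). In 13 members the groups did not overlap, as in 12.0% of all genes. The median log2 fold change was 0.36 over the members and -0.01 over all genes, and again measured values were used in choosing the list. Both groups came from the same 5 mice. With the mouse as a replicate block, 21 members were higher and 1 was lower, beside 2046 higher and 1763 lower of all 14821 genes tested. The 6 members that were added were Pdlim7, Fscn1, Zyx, Flna, Tpm4 and Tpm1 (adjusted p of 0.00753 to 0.0489). Without mouse 36, 10 members were higher and 1 was lower, beside 880 higher and 734 lower of 14918 genes tested. Oligodendrocyte markers moved with the treatment, with 4 of 6 (Mbp, Mog, Mag and Sox10) higher after 4-OHT. Their summed level was 211 to 702 CPM without and 557 to 1090 CPM with 4-OHT, and none of the 6 was at 0 in a whole group. Mog, however, was at most 0.07 CPM without 4-OHT and passed the filter on low counts only through the 4-OHT group. The direction of Mog was thus fixed by the filter. Of 5 astrocyte markers Gfap was higher and S100b lower, and their summed level did not overlap, at 2147 to 3046 CPM without and 3181 to 4178 CPM with 4-OHT. Of 10 neural stem cell markers Vim was higher and 2 were lower, Pax6 among them, at summed levels of 7193 to 10410 and 7650 to 9814 CPM. The part of these markers in the results was not tested.

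The 4 largest rises belonged to Fblim1, Flnc, Inf2 and Synpo. Fblim1 (migfilin, ENSMUSG00000006219, chr4:141576062-141606096, minus strand) ties filamin to adhesions. It was at 2.17, 1.08, 0.979, 0.923 and 0.81 CPM in the untreated cultures of mice 19, 24, 26, 35 and 36 and at 23.1, 13.2, 12.2, 17.8 and 13.3 CPM in their 4-OHT cultures. It was 13.3-fold higher (log2 fold change 3.74, SE 0.31, adjusted p = 1.69e-04) and rose in 5 of 5 mice. Flnc (filamin C, ENSMUSG00000068699, chr6:29433256-29461883, plus strand) is known as a muscle filamin. It went from 5.28, 2.02, 1.68, 1.15 and 1.07 CPM to 35.2, 12.9, 17.5, 26.0 and 33.8 CPM. The groups did not overlap, and Flnc was 11.2-fold higher (log2 fold change 3.48, SE 0.47, adjusted p = 0.00129). Without the untreated culture of mouse 19, the highest of its group, the log2 fold change was 4.08. Inf2 (ENSMUSG00000037679, chr12:112588784-112615557, plus strand) is a formin that both builds and severs filaments. It was at 5.54, 3.94, 11.7, 6.81 and 8.69 CPM without and at 63.2, 42.4, 76.0, 66.9 and 75.4 CPM with 4-OHT. Every treated value lay above every untreated one, and Inf2 was 8.84-fold higher (log2 fold change 3.14, SE 0.28, adjusted p = 1.91e-04). Synpo (synaptopodin, ENSMUSG00000043079, on chromosome 18) binds alpha-actinin in dendritic spines and podocytes. It went from 14.9, 12.2, 14.9, 12.8 and 8.21 CPM to 76.9, 53.8, 64.3, 60.7 and 60.2 CPM. Synpo was 5.01-fold higher (log2 fold change 2.32, SE 0.17, adjusted p = 8.16e-05), again without overlap.

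**Figure D3:**
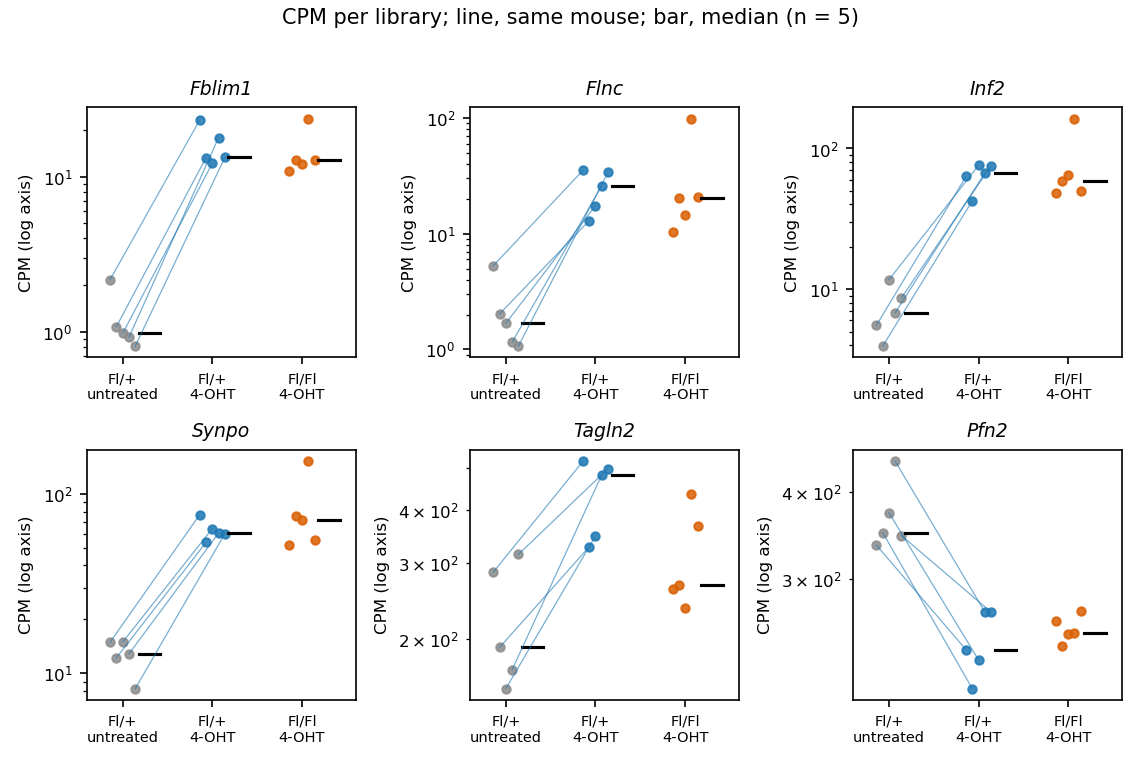
CPM in each library, on a log axis, for 6 members with calls after 4-OHT. Lines join the cultures of 1 mouse with and without 4-OHT, and black bars are group medians. All 5 lines rise for Fblim1, Flnc, Inf2, Synpo and Tagln2 and fall for Pfn2, and the Fl/Fl culture of mouse 37 is the highest Fl/Fl point in Fblim1, Flnc, Inf2, Synpo and Tagln2.

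The same 4 genes did not pass the test between genotypes. Fblim1 was at 10.8, 12.8, 12.1, 23.5 and 12.7 CPM in the Fl/Fl cultures of mice 27, 28, 29, 37 and 39, and Flnc at 10.2, 20.5, 14.3, 98.1 and 20.8 CPM. Inf2 was at 162 CPM in the culture of mouse 37 and at 48.2 to 64.4 CPM in the other 4. Synpo was at 52.2, 75.7, 72.1, 152 and 55.2 CPM. In each the culture of mouse 37 was the highest of the 5. The log2 fold changes against Fl/+ 4-OHT cultures were -0.14 (95% interval -0.66 to 0.39) for Fblim1, 0.39 (-0.84 to 1.63) for Flnc, 0.25 (-0.45 to 0.96) for Inf2 and 0.38 (-0.18 to 0.94) for Synpo. Without that culture they were -0.40, -0.60, -0.23 and 0.02, and none was called. The oligodendrocyte markers stood high in the same culture, with Mbp at 1013 CPM against 81.0 to 154 CPM in the other 4 Fl/Fl cultures and Mag at 151 against 7.36 to 15.4 CPM. So did the astrocyte markers Gfap, at 2264 against 231 to 532 CPM, and Aqp4, at 546 against 199 to 255 CPM, and the stem cell marker Vim, at 6017 against 2465 to 3308 CPM. The part of these markers in the levels of these 4 genes was not tested.

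The other rises after 4-OHT were smaller. Tagln2 (transgelin-2, ENSMUSG00000026547, chr1:172500047-172507380, plus strand) was at 286, 191, 153, 169.5 and 315 CPM without and at 519, 328, 348, 482 and 499 CPM with 4-OHT. The groups did not overlap, and Tagln2 was 1.95-fold higher (log2 fold change 0.97, SE 0.22, adjusted p = 0.0157). In Fl/Fl cultures it was at 261, 268, 237, 435 and 366 CPM. Capg was at 2.71, 1.29, 1.22, 1.12 and 1.69 CPM in untreated cultures and was 2.596-fold higher after 4-OHT (log2 fold change 1.38, SE 0.39, adjusted p = 0.0393). In the main edgeR fit it was the 1 member called higher in both comparisons. Pdlim7 was another with the mouse as a block (log2 fold change after 4-OHT 0.63, adjusted p = 0.00753), and with DESeq2, library size alone or sex as a covariate (adjusted p of 0.0195 to 0.0482). The call of Capg after 4-OHT was lost when any of 7 single libraries was left out of the fit without the block (adjusted p of 0.0526 to 0.1). Gsn (gelsolin) rose from 32.5 ± 8.95 to 60.8 ± 14.3 CPM and Msn (moesin) from 414 ± 128 to 739 ± 142 CPM. Arpc1b rose from 53.1 ± 10.3 to 91.5 ± 18.7 CPM and Add3 (gamma-adducin) from 136 ± 18.9 to 219.8 ± 26.9 CPM. Tpm3 rose from 84.0 ± 16.1 to 125 ± 7.91 CPM. These 5 genes did not overlap between the groups (adjusted p of 0.0035 to 0.0221). Msn lost its call without the untreated culture of mouse 26 (adjusted p = 0.0536) and without both cultures of mouse 36 (adjusted p = 0.0619). Actn1, Cald1 and Cnn3 were called higher with overlapping values (adjusted p of 0.0225 to 0.0467), and each lost its call under several alternatives. All of these losses came from fits that ignored the shared mice. With the mouse as a replicate block, Actn1, Cald1, Cnn3, Msn and Capg were all called higher (adjusted p of 0.00222 to 0.0287). Each of them rose in 5 of 5 mice.

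Pfn2 was the 1 member called lower after 4-OHT. Pfn2 (profilin-2, ENSMUSG00000027805, chr3:57841895-57848079, minus strand), the profilin typical of neurons, was at 336, 349.9, 374, 443 and 346 CPM without and at 237, 209, 229.5, 269 and 269 CPM with 4-OHT. Every treated value lay below every untreated one, and Pfn2 fell in 5 of 5 mice (log2 fold change -0.61, SE 0.11, adjusted p = 0.00427). In Fl/Fl cultures it was at 261, 241, 250.4, 251 and 270.3 CPM, below all untreated values. Myh10 was 1.28-fold higher after 4-OHT (log2 fold change 0.36, adjusted p = 0.0177) and lower in Fl/Fl cultures. In the main edgeR fit it was the 1 member called in opposite directions in the 2 comparisons, a count that depends on the fit. Tpm4 joined it with DESeq2, library size alone, a shared dispersion or sex as a covariate (adjusted p of 0.0245 to 0.0495), Fscn1 with sex as a covariate, and Myl9, the other way round, with DESeq2. With the mouse as a replicate block there were 5, as Tpm4, Fscn1, Flna and Tpm1 were then also called higher after 4-OHT. Members called lower between genotypes and not called after 4-OHT numbered 12 without and 8 with the block. Those called higher after 4-OHT and not called between genotypes numbered 13 without and 14 with it. Members tested in both comparisons and called in neither numbered 12 without and 11 with it.

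**Figure D4:**
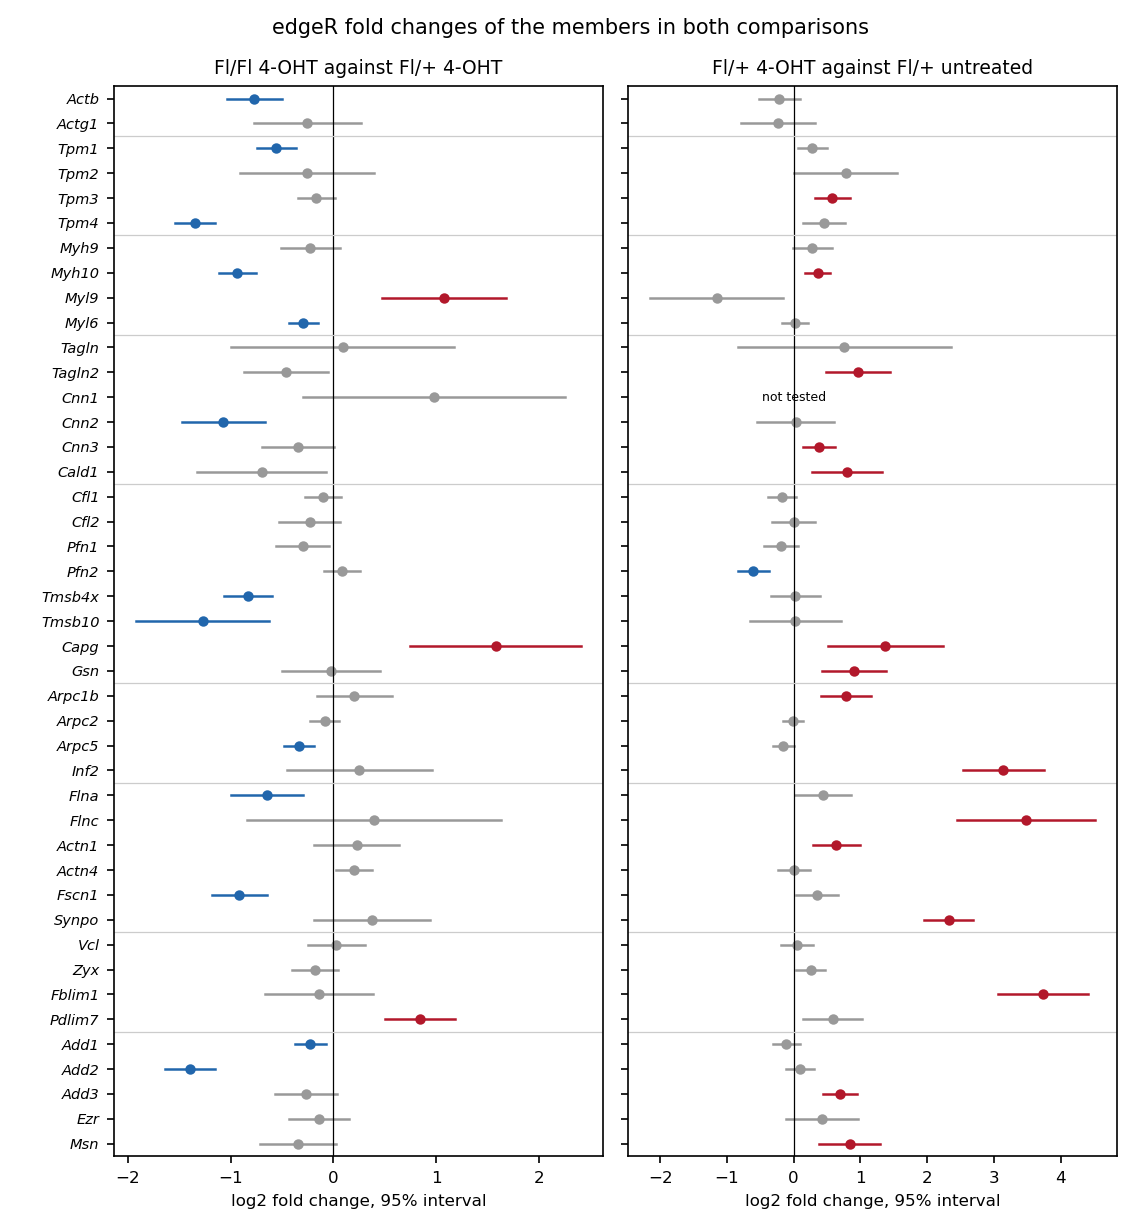
log2 fold change with its 95% interval for each member, between genotypes on the left and after 4-OHT in Fl/+ cultures on the right. Red and blue mark members called higher and lower, grey marks those not called. The horizontal scales of the panels differ, and Cnn1 was not tested on the right. Blue points, 13 in number, prevail on the left and red points, 15 in number, on the right.

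Fl/Fl 4-OHT cultures were also set against untreated Fl/+ cultures, which combines both differences. Of 43 members tested, 12 were higher and 14 were lower, against 15.7% and 15.1% of 15032 genes, and 19 did not overlap, against 23.1%. Over all genes 2357 were higher and 2263 lower, which became 3150 and 1603 when libraries were scaled by their totals alone, and the members split into 12 higher and 12 lower. Without the libraries of Fl/Fl mouse 39 and untreated mouse 36, 11 members were higher and 12 were lower. All genes then gave 2076 higher and 1935 lower of 15106 tested. Of the markers, 5 of 6 oligodendrocyte genes were higher and 5 of 6 neuronal genes were lower. Of the neural stem cell genes 4 of 10 were lower, among them Sox2, Fabp7 and Pax6, of the astrocyte genes Gfap was higher and S100b lower, and of the mural genes Rgs5 was higher. The part of these markers was not tested. Mog and Rgs5 passed the filter on low counts here only through the Fl/Fl group, so nothing is read from their direction. Capg, from 1.61 ± 0.656 to 12.4 ± 5.03 CPM, was 7.75-fold higher (log2 fold change 2.95, SE 0.34, adjusted p = 1.97e-04). Pdlim7 was 2.69-fold higher (log2 fold change 1.43, SE 0.23, adjusted p = 0.00108). Actb was 1.98-fold lower (log2 fold change -0.99, SE 0.16, adjusted p = 0.0011) and Pfn1 was 1.40-fold lower (log2 fold change -0.49, SE 0.11, adjusted p = 0.0064). Cnn1 is among the 12, but it held 4, 7, 0, 1 and 6 counts in untreated cultures and 11, 13, 20, 55 and 20 counts in Fl/Fl cultures. It passed the filter on low counts only through the Fl/Fl group, so that its direction was fixed by the filter and no fold is given. Flnc had a log2 fold change of 3.88, which was 2.89 without the Fl/Fl culture of mouse 37 and 4.47 without the untreated culture of mouse 19.

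The rest of the system was read from 9 further lists of 135 genes, of which 127 were tested in each comparison. Between genotypes 12 were higher (9.45%) and 25 were lower (19.7%), beside 16.8% and 15.0% of all genes tested. After 4-OHT 18 were higher (14.2%) and 8 were lower (6.3%), beside 7.34% and 6.45% of all genes tested. Without both libraries of unclear sex, 6 were higher between genotypes, in a fit that called 1706 of 15142 genes higher. With single libraries left out, 8 to 20 were higher and 3 to 10 were lower after 4-OHT. With the mouse as a replicate block 28 were higher, in a fit that called 2046 of 14821 genes higher. The focal adhesion plaque list was the largest of the 9. It had 11 of 33 genes lower and 4 higher between genotypes, with a median log2 fold change of -0.23. Pdlim1 went from 4.67 ± 0.645 to 1.38 ± 0.239 CPM (log2 fold change -1.75), Tgfb1i1 (Hic-5, a paxillin relative) from 11.2 ± 1.59 to 3.60 ± 2.37 CPM (-1.63) and Nexn (nexilin) from 2.98 ± 1.04 to 1.17 ± 0.358 CPM (-1.33). After 4-OHT, 8 of the 33 were higher and 1 was lower, led by Ptk2b (the adhesion kinase Pyk2), from 1.64 ± 1.14 to 13.6 ± 2.47 CPM (log2 fold change 3.06). Pdlim3 (log2 fold change 1.87) and Pdlim4 (1.32), both relatives of Pdlim7, rose as well.

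The counts of the lists below stand beside 16.8% higher and 15.0% lower of all genes tested between genotypes. After 4-OHT these shares were 7.34% and 6.45%. With few genes in a list, nothing is read from its counts. For filament turnover and capping, 5 of 20 genes were lower and 1 was higher between genotypes. Coro1a (coronin-1A) had a log2 fold change of -1.43, and the pointed-end cappers Tmod2 and Tmod3 had -0.86 and -0.50. After 4-OHT 4 of the 20 were higher, among them Tmod3 (0.57), the cofilin phosphatase Ssh2 (0.54) and Tmod2 (0.53). Of 13 crosslinkers, spectrins and membrane links, 4 were lower and none was higher between genotypes, with Dbn1 (drebrin) from 194 ± 30.7 to 107 ± 10.7 CPM, Marcksl1 from 580 ± 105 to 325 ± 27.8 CPM and Marcks from 625 ± 65.7 to 381 ± 48.4 CPM. After 4-OHT 3 were higher and 2 were lower, with Plec (plectin) at a log2 fold change of 1.62 and Marcks at -0.84. In the Arp2/3 list, 3 of 17 were higher and 1 was lower between genotypes. Arpc3 (0.34) and Arpc1a (0.33) rose and Wasf2, a subunit of the WAVE complex, fell (-0.60). After 4-OHT Wasf2 rose (0.47) and Brk1 fell (-0.35).

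Of 12 formins other than Inf2, 1 was called between genotypes (Diaph1, log2 fold change -0.52), and after 4-OHT Fmnl3 (-0.72) and Fmnl1 (-0.65) fell. As above, nothing is read from counts in lists of this size. Of the muscle-type actins 2 of 4 were tested, and Actc1 (cardiac actin) fell between genotypes (-2.12) at 3.95 ± 2.54 and 0.897 ± 0.322 CPM. Among 11 tested SRF and TEAD factors with cofactors, Tead2 fell between genotypes, from 104 ± 12.7 to 42.5 ± 9.07 CPM (log2 fold change -1.27, adjusted p = 2.74e-04), and Mrtfa rose after 4-OHT (0.42, adjusted p = 0.0464). Among 8 tested YAP target genes, 3 were higher and 1 was lower between genotypes. Ccn2 went from 0.979 ± 0.196 to 4.52 ± 1.67 CPM (log2 fold change 2.21), Axl from 81.8 ± 15.5 to 151 ± 19.0 CPM (0.90) and Ccn1 from 26.8 ± 2.98 to 44.1 ± 8.54 CPM (0.73). After 4-OHT Amotl1 rose (0.85) and Axl fell (-0.52).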

How the data were processed

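The authors sequenced poly(A) RNA from TruSeq stranded libraries, mapped reads to GRCm38 with STAR 2.5.4b and assigned uniquely mapped reads to genes with featureCounts 1.5.0 in stranded mode. The values deposited by the authors were raw counts per gene and library, without normalization. Since multi-mapping reads did not enter these values, genes with near-identical copies can be undercounted. Totals were 25.7 M to 32.2 M counts.

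The main edgeR fit was tried on counts simulated for the genotype comparison only, with far fewer changed genes than were called in the data. The other comparisons, the mouse block, the covariates and DESeq2 were not simulated. Symbols and positions came from GENCODE M21, which matched 53706 of 53801 genes. The 43 members and all further lists were chosen with earlier results of these data known. Each comparison used its own 10 libraries in edgeR 4.0.16 (R 4.3.3) with filterByExpr (minimum count 10), TMM scaling and the quasi-likelihood test, with Benjamini-Hochberg adjustment over all genes tested. CPM used TMM factors over 15 libraries. Levels between genes were divided by the length of the union of exons. Where members did not overlap between genotypes, a two-sided permutation test of log2(CPM + 0.5), run exactly, gave p = 0.00794, the smallest p that its 252 arrangements allow. It was not used between both Fl/+ groups, which share their mice. Every library's value was given for Actb, Actg1 and up to 6 of the largest called rises and falls in the genotype and 4-OHT comparisons, and for each further list up to 3 called genes were named by size of change if they averaged 1 CPM or more. The share of 51-base stretches of a gene's GENCODE transcripts found elsewhere was counted on both strands.

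Deviations from group means correlated with r of 0.204 to 0.586 between cultures of the same mouse and with r of -0.489 to 0.317 between different mice, and both Fl/+ groups came from the same animals, so the mouse served as a replicate block in an alternative. DESeq2 1.42.0 served as another test (Wald) and as another source of size factors for edgeR. Further alternatives were library size alone, no filter, at least 10 counts in every library, a shared dispersion, sex as a covariate and each library left out. Leaving out libraries of unclear sex was added after the data were seen. Dose is not given because the labels and the methods describe it differently. Apart from the Fl/+ groups, nothing ties replicates to shared animals, and p-values measure the spread between these cultures. One further gene list and single genes of other lists entered the totals but are not reported here.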

Additional observations from a re-analysis of the deposited data

Results flagged for a closer look

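In groups of 5, the highest or lowest library of a member was set apart where its gap to the nearest other library exceeded 0.71 of the group's range (Dixon's 95% value). Of 129 groups examined, 11 were set apart, and chance alone gives about 1 in 20. In the Fl/Fl culture of mouse 37, 6 members stood apart as highest: Flnc at 98.1 CPM (others 10.2 to 20.8), Inf2 at 162 CPM (others 48.2 to 64.4), Synpo at 152.5 CPM (others 52.2 to 75.7), Fblim1 at 23.5 CPM (others 10.8 to 12.8), Cnn3 at 586 CPM (others 330.1 to 380.1) and Cnn1 at 2.13 CPM (others 0.342 to 0.695). Myl6 stood apart there as well, at 76.0 CPM (others 64.3 to 66.8), although the group as a whole was lower than Fl/+ 4-OHT cultures. The Fl/Fl culture of mouse 39, whose sex-linked counts did not match its label, was highest for Cfl1 at 1333 CPM (others 1156 to 1207). The untreated culture of mouse 19 was highest for Flnc at 5.28 CPM (others 1.07 to 2.02) and Fblim1 at 2.17 CPM (others 0.81 to 1.08). The Fl/+ 4-OHT culture of mouse 24 was lowest for Actn1 at 21.6 CPM (others 31.8 to 35.4). Markers of other cell types were also highest in the Fl/Fl culture of mouse 37, with Mbp at 1013 CPM against 81.0 to 154 CPM and Gfap at 2264 CPM against 231 to 532 CPM in the other 4, and their part was not tested.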

How the results depend on the processing

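Of the 16 members called between genotypes, 14 kept direction and call under all 18 alternatives, and the exceptions were Add1 and Myl9. Of the 16 called after 4-OHT, 11 did so under all 19, and the exceptions were Actn1, Cald1, Capg, Cnn3 and Msn. Of the 26 called in Fl/Fl 4-OHT against untreated Fl/+ cultures, 20 did so under every alternative that could be fitted, and the exceptions were Add1, Add3, Cfl1, Gsn, Myl6 and Tpm3. With each library left out in turn, members called between genotypes were 3 to 4 higher and 12 to 17 lower, and the 17 came without the Fl/Fl culture of mouse 37, which added Cnn3, Tagln2, Add3 and Msn. After 4-OHT they were 11 to 14 higher and 1 lower, and in the combined comparison 9 to 12 higher and 12 to 14 lower. DESeq2 called 2 members lower after 4-OHT, adding Myl9. With the mouse as a replicate block, 28 genes of the further lists were higher after 4-OHT, against 18. The block also moved the members called higher from 15 to 21 and changed no other call among members. Over all genes it moved those called higher from 1088 to 2046. Leaving out single libraries gave 8 to 20 of these higher and 3 to 10 lower after 4-OHT, 8 to 11 higher between genotypes, and 12 to 25 lower in the combined comparison, where library size alone gave 12 and no filter gave 13, against 21. Without both libraries of unclear sex, 6 of these genes were higher between genotypes, against 12. These counts after 4-OHT moved by over 1.5 times without untreated mouse 19 or 26 or without 4-OHT mouse 19, 24, 35 or 36, and the combined count without Fl/Fl mouse 29. The cause was not tested. Among the called genes and those given library by library, leaving out single libraries changed the sign of the log2 fold change between genotypes for Fblim1 (-0.40 to 0.027), Inf2 (-0.23 to 0.38) and Flnc (-0.60 to 0.62), and after 4-OHT for Actg1 (-0.34 to 0.0068), Cnn2 (-0.12 to 0.21) and Tmsb10 (-0.16 to 0.25), none of them called in that comparison. Members given only by group values were not listed for changes of sign. Depth was similar in all libraries, and levels near 0.1 CPM rest on about 3 counts.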
